A study of Bos taurus with 40 samples.

Results

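The myosin heavy chain genes are the rows of the cattle count tables whose symbol was MYH1, MYH2, MYH3, MYH4, MYH6, MYH7, MYH8, MYH9, MYH10 or MYH11. Of these 10 genes, 8 were listed among the 13570 genes of each table, and all 8 were among the 13148 genes tested. MYH4 and MYH6 were not analysed here. RNA-seq was performed on liver, abdominal fat, longissimus dorsi muscle (a back muscle) and pituitary gland of 10 Korean cattle, a beef breed, slaughtered at an age over 22 months. The 5 cows and 5 bulls gave 1 library per tissue each, 40 in all, so the 4 tissues of an animal are not independent. Animals are numbered within each sex. No treatment or transgene is given in the labels. Each library was made from a whole piece of tissue, in which fewer cells of a type and less RNA per cell cannot be told apart.

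Myosin heavy chains are the motor proteins that pull on actin filaments. In adult skeletal muscle, each fibre type is known for its own heavy chain: MYH7 encodes the slow chain of type I fibres, MYH2 the fast chain of type IIa fibres and MYH1 the fast chain of type IIx fibres. MYH3 and MYH8 encode the embryonic and perinatal chains of developing muscle, MYH11 encodes the smooth muscle chain, and MYH9 and MYH10 encode nonmuscle chains that are made in most cells. RefSeq places MYH1, MYH2 and MYH3 next to each other on chromosome 19 of the assembly ARS-UCD2.0, beside MYH4 and MYH8. There MYH7 lies next to MYH6 on chromosome 10, and MYH9, MYH10 and MYH11 lie on chromosomes 5, 19 and 25. The skeletal chains are close in sequence, and only uniquely aligned reads were counted, so each of their values is uncertain to the extent that such reads were shared. In the same annotation MYH7 overlaps MIR208B, MYH10 overlaps NDEL1 and MYH11 overlaps NDE1. The strand setting of the counting is not given in the sources used here.

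Between 5173092 and 19165864 reads per library were counted on genes (median 10005607). The defining markers matched the labelled tissues: 6 skeletal muscle markers summed to 87543 to 177201 CPM in muscle and to at most 145 CPM in any other library, where CPM are read counts scaled to a common library size with TMM factors over all 40 libraries. The hepatocyte markers in liver reached 111443 CPM or more, the pituitary hormone markers in pituitary gland 82844 CPM or more, and the adipocyte markers in fat 6910 CPM or more. The liver of bull 3 went against its label, with XIST inside the range of the cow livers and 0 reads of 3 Y-linked genes. The fat of bull 5 had few Y-linked reads, with 23 of USP9Y, 2 of DDX3Y and 3 of ZFY against 311 to 539, 20 to 45 and 96 to 138 in the other bull fats, and its XIST count was 18 reads. It also had the highest smooth muscle markers of the bulls (5528 CPM against 819 to 2024), and the muscle of cow 4 stood far from the other cow muscles in MYH2, MYH7, MYH9 and MYH10, as given with each result.

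In muscle, MYH2 had 32327 ± 16603 CPM (SD, n = 10), MYH7 had 12861 ± 9939 CPM and MYH1 had 11524 ± 12786 CPM. MYH1, MYH2 and MYH7 together took 56712 of the 59179 CPM of the 8 genes there, and the 8 genes took 4.19 ± 0.711% of all gene reads. Outside muscle, the nonmuscle and smooth muscle chains MYH9, MYH10 and MYH11 made 97.9 ± 1.67% of the reads of the 8 genes in liver, 98.4 ± 1.24% in fat and 95.8 ± 2.56% in pituitary gland. These are shares of reads, not levels per length, because coding lengths were not used here, so they do not order the genes by transcript number.

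**Figure D1:**
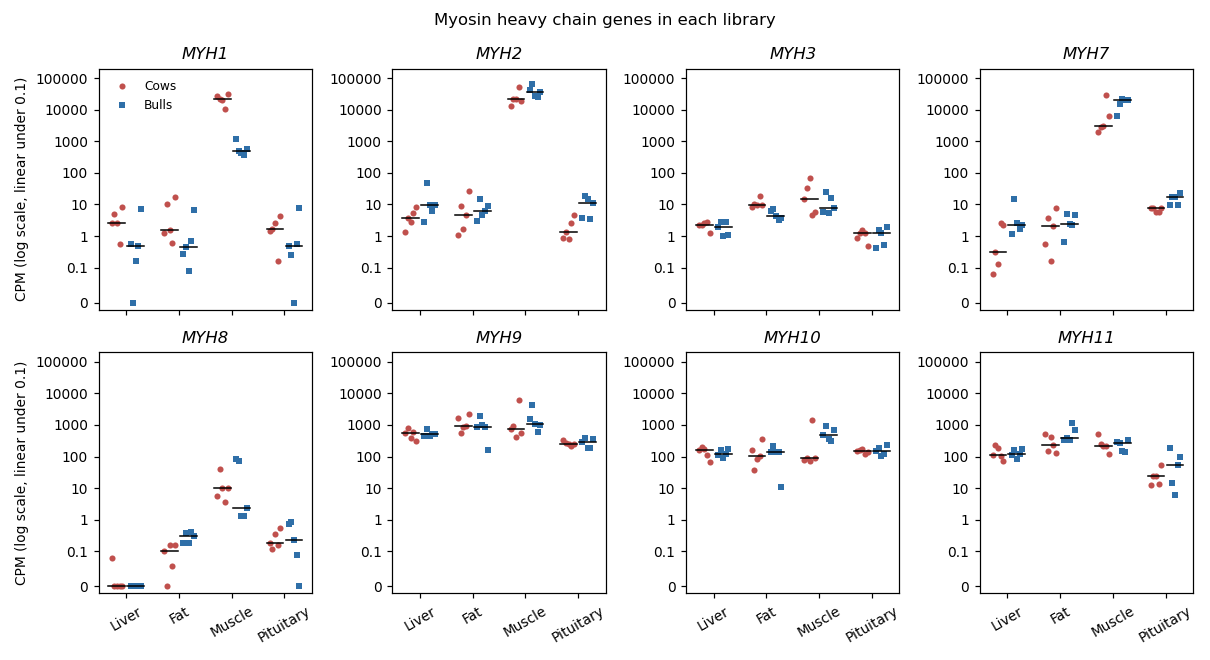
Level of each of the 8 genes in the 40 libraries, in TMM-scaled CPM on a logarithmic axis that is linear under 0.1, by tissue, with cows as red circles, bulls as blue squares and the median of each 5 as a line. MYH1, MYH2 and MYH7 lie orders of magnitude higher in muscle, while MYH9 to MYH11 are read in every library, and MYH1 of the bulls in muscle (369 to 1216 CPM) sits below all cows (10310.1 to 32268 CPM).

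Tissues were compared in M2, the edgeR model with sex and tissue over all 40 libraries, by a likelihood ratio test with Benjamini-Hochberg adjustment over all 13148 genes. Of the 8 genes, 8 differed between liver and muscle (background 62.8% of all genes), 6 between fat and muscle (60.4%) and 8 between muscle and pituitary gland (64.9%). Of the pairs without muscle, 4 differed between liver and fat (65.1%), 5 between liver and pituitary gland (65.4%) and 4 between fat and pituitary gland (65.6%). Most genes of the tables thus differed between any pair of tissues. Each count with liver includes MYH8, which had 1 read over the 10 livers. With library sizes alone in place of TMM factors, a setting chosen after the data were seen, the median log2 difference of all genes moved to -0.82 for liver against fat, -0.92 for liver against pituitary gland, 0.86 for fat against muscle and -0.89 for muscle against pituitary gland, so the smaller differences below depend on the scaling.

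MYH2, the type IIa chain, ranged in muscle from 13032 to 66658 CPM. It was read at 9.85 ± 14.1 CPM in liver, 8.03 ± 7.63 CPM in fat and 6.13 ± 6.29 CPM in pituitary gland (SD, n = 10 each). The log2 difference of muscle over pituitary gland was 12.66 (SE 0.489, edgeR adjusted p = 8.06e-57). The 3 tissues without skeletal fibres could not be ordered for MYH2, with adjusted p-values of 0.139 to 0.902.

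MYH1 had 2.76 ± 3.12 CPM in liver, 3.91 ± 5.74 CPM in fat and 1.94 ± 2.47 CPM in pituitary gland. Muscle exceeded liver by 11.21 on the log2 scale (SE 0.769, edgeR adjusted p = 4.35e-20 for the contrast). Among the other 3 tissues no pair passed the test, with adjusted p-values of 0.611 to 0.834.

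MYH7, the slow chain, was the only adult skeletal chain for which a difference among liver, fat and pituitary gland passed the test. The pituitary gland held 11.1 ± 6.01 CPM against 2.78 ± 4.36 CPM in liver and 2.93 ± 2.38 CPM in fat. The log2 difference of liver from pituitary gland was -2.14 (SE 0.528, adjusted p = 0.000218), and that of fat from pituitary gland was -1.73 (SE 0.522, adjusted p = 0.00266). The lowest pituitary library had 5.61 CPM, above 9 of the 10 livers and 9 of the 10 fat samples. Neither MYH2 nor MYH1 passed the test there, and muscle was far above, by 10.22 on the log2 scale (SE 0.517) over pituitary gland.

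The chains were also set against ACTA1, the skeletal muscle actin gene. In pituitary gland there were 73.3 to 567 MYH7 reads per 100 ACTA1 reads (median 167), and in muscle 3.67 to 44.8 (median 15.6). All 10 of 10 animals had a higher ratio in the pituitary gland than in their own muscle, by 3.74 to 154 times (median 6.89). In liver 5 of 10 and in fat 7 of 10 animals had a higher ratio than in their own muscle. For MYH2 the corresponding medians were 66.2 reads per 100 ACTA1 reads in pituitary gland and 45.4 in muscle, and 6 of 10 animals were higher in the pituitary gland, 9 of 10 in liver and 7 of 10 in fat, by at most 3.46 times. For MYH1 7 of 10 animals were higher in the pituitary gland, by at most 60.1 times, and for MYH3 10 of 10, by 206 to 5489 times. These ratios are a description of read counts, and the ACTA1 counts outside muscle were as low as 21 reads. ACTA1 had 40375 to 101841 CPM in muscle and 1.33 to 70.0 CPM elsewhere. Any gene that falls less than ACTA1 outside muscle therefore has a higher ratio there. The share of all genes with a higher ratio was not computed.

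**Figure D2:**
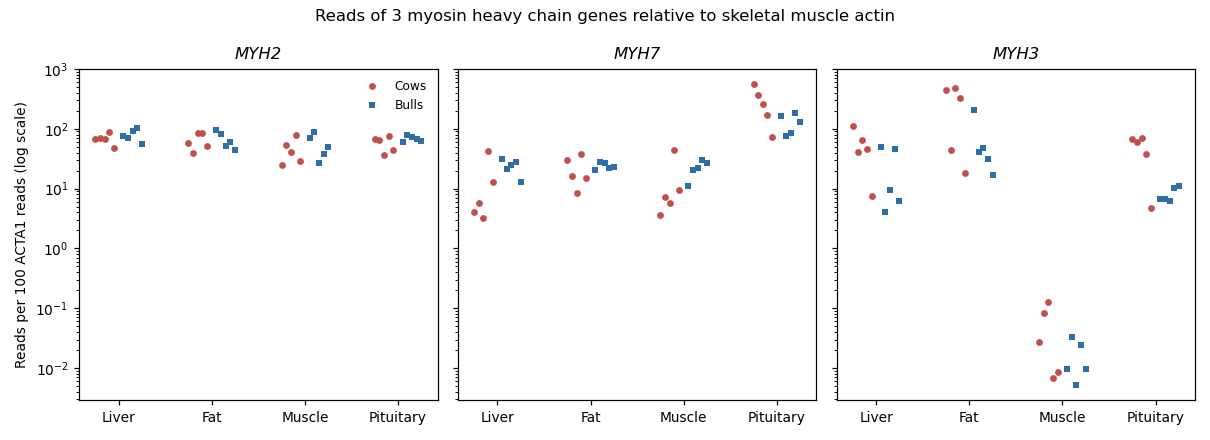
Reads of MYH2, MYH7 and MYH3 per 100 reads of ACTA1 in each library, on a logarithmic axis, by tissue, with cows as red circles and bulls as blue squares. MYH2 ranges from 24.4 to 88.9 in muscle and from 36.7 to 103 elsewhere, MYH7 is highest in pituitary gland (73.3 or more), and MYH3 is at most 0.129 in muscle against at least 4.09 elsewhere.

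MYH3, the embryonic chain, had 18.5 ± 19.8 CPM in muscle, 8.01 ± 4.38 CPM in fat, 2.06 ± 0.750 CPM in liver and 1.10 ± 0.519 CPM in pituitary gland. Muscle exceeded fat (log2 difference of fat from muscle -1.22, SE 0.367, adjusted p = 0.00220), a call that was lost with library sizes alone (-0.50, adjusted p = 0.265). Fat exceeded liver (log2 difference of liver from fat -1.86, SE 0.381, adjusted p = 5.48e-06) under every setting tried. Liver and pituitary gland differed by 0.86 on the log2 scale (SE 0.394, adjusted p = 0.0438), but not by the quasi-likelihood test (adjusted p = 0.0563), with library sizes alone (0.0076, adjusted p = 1) or in 7 of 10 fits without 1 animal. Relative to ACTA1, MYH3 was higher outside muscle in every animal, with medians of 43.5 reads per 100 ACTA1 reads in liver, 45.5 in fat and 10.7 in pituitary gland against 0.0171 in muscle.

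MYH8, the perinatal chain, had 23.2 ± 31.5 CPM in muscle, where 3 libraries held most of its reads: bull 1 with 86.1 CPM, bull 2 with 70.1 CPM and cow 2 with 41.2 CPM. The other 7 muscles had 1.32 to 10.2 CPM. In fat it reached 0.421 CPM and in pituitary gland 0.857 CPM at most. Over the 10 livers a single read was counted, below the floor of 3 reads, so no fold is given for liver.

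The nonmuscle chain MYH9 was highest by mean in muscle at 1731 ± 1936 CPM, followed by fat at 1099 ± 619 CPM, liver at 530.1 ± 150 CPM and pituitary gland at 271 ± 70.8 CPM. Fat and muscle could not be ordered (log2 difference of fat from muscle -0.66, SE 0.369, 95% interval -1.38 to 0.065, adjusted p = 0.114). With library sizes alone the sign turned (0.36, adjusted p = 0.368), and without the muscle of cow 4 the difference was -0.080. Liver was above pituitary gland by 0.97 (SE 0.369, adjusted p = 0.0158), a call lost with library sizes alone (0.12, adjusted p = 0.766), and below fat by a log2 difference of -1.05 (SE 0.369, adjusted p = 0.00904).

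MYH10, the other nonmuscle chain, had 443 ± 435 CPM in muscle and 137 ± 41.0 CPM in liver, 137 ± 97.1 CPM in fat and 154 ± 37.6 CPM in pituitary gland. Over both sexes, muscle was higher than each of the other tissues, with a log2 difference of 1.52 over pituitary gland (SE 0.415, adjusted p = 0.000749). Without the muscle of cow 4 this difference was 0.96 (adjusted p = 0.0325), and with library sizes alone it was 0.38 and no longer passed the test (adjusted p = 0.405). The order did not hold in cows 1, 2, 3 and 5. Their muscles had 77.0, 89.8, 73.4 and 90.3 CPM, below their own pituitary glands at 152, 156, 173 and 138 CPM. Cow 4 and every bull had more in muscle than in pituitary gland. Liver, fat and pituitary gland were not told apart for MYH10: the 95% intervals of their log2 differences ran from -0.82 to 0.81 for liver against fat and from -0.97 to 0.65 for liver against pituitary gland. With library sizes alone, MYH10 was lower in liver than in pituitary gland (-0.99, adjusted p = 0.0221).

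MYH11, a defining gene of smooth muscle such as that of vessel walls, had 437 ± 309 CPM in fat, 251 ± 116 CPM in muscle, 135 ± 50.5 CPM in liver and 48.4 ± 55.6 CPM in pituitary gland. Fat and muscle were not told apart (log2 difference 0.69, SE 0.395, adjusted p = 0.127), although fat was higher with library sizes alone (1.45, adjusted p = 0.00105). Liver was below muscle by a log2 difference of -0.89 (SE 0.396, adjusted p = 0.0404), and this call was lost with the quasi-likelihood test, DESeq2, RLE factors, a stricter filter, library sizes alone and in 6 of 10 fits without 1 animal. Pituitary gland was lowest, with fat above it by 3.22 (SE 0.396, adjusted p = 4.66e-13). Of the 7 smooth muscle markers, 7 were lower in liver than in fat and 7 higher in fat than in pituitary gland. Of all genes, 65.1 and 65.6% differed in these pairs, in either direction. Between fat and muscle, 1 marker was higher in fat and 3 were lower.

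The sex difference was then tested in each tissue with M1, the edgeR model with sex as the only term, and a log2 fold change is bulls to cows. In muscle, MYH1 was the only DEG of the 8 genes (background 0.517% of all genes, 0.38% lower in bulls) and was female-biased. The cows had 27790.1, 22031, 19797, 10310.1 and 32268 CPM from cow 1 to cow 5, and the bulls 1216, 488, 411, 369 and 563 CPM from bull 1 to bull 5. The sexes did not overlap, as for 1.65% of all genes in muscle, and the lowest cow was cow 4. The log2 fold change was -5.20 (SE 0.402, adjusted p = 8.27e-24, and 4.64e-05 by the quasi-likelihood test). Of the 5 leukocyte markers, CD14 was also lower in bull muscle (19.6 ± 2.69 CPM in cows, 7.42 ± 3.57 CPM in bulls, adjusted p = 0.0233), and the list summed to 100.3 to 270.1 CPM in cows and 42.3 to 149 CPM in bulls. The part of these cells in the result was not tested.

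MYH2 went the other way by mean but did not pass the test. The cows had 13032, 21484, 21714, 51028 and 19049 CPM, and the bulls 40537, 66658, 27169, 25067 and 37528 CPM. Cow 4 alone lay among the bulls, and each bull lay above the other 4 cows. Scaled by library size alone the margin was thin, with 19635 CPM in bull 4 and 19571 CPM in cow 2. These 4 cows were set apart after the values were seen. The share of all genes with such an arrangement was not computed. The log2 fold change of MYH2 was 0.64 (SE 0.402, adjusted p = 0.588), and without cow 4 it was 1.07 (adjusted p = 0.0425).

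MYH7 showed the same arrangement. Cows 1, 2, 3 and 5 had 1964, 2871, 3048 and 6298 CPM, and cow 4 had 29546 CPM, the highest of all 10 muscles on this TMM scale. The bulls had 6474, 15109, 22527, 20131 and 20645 CPM, each above those 4 cows, although bull 1 lay close to cow 5. Here too the 4 cows were set apart after the values were seen, without a share of all genes beside it. Scaled by library size alone, cow 4 was not the highest, with 15306 CPM against 16468 in bull 3 and 15769 in bull 4. With all animals the log2 fold change was 0.99 (SE 0.633, adjusted p = 0.609), and without cow 4 it was 2.30 (adjusted p = 2.63e-05). A single library, the muscle of cow 4, thus decided whether MYH2 and MYH7 were called in muscle. Cow 4 was singled out by its values of these genes, so the fits without it are a description. Without cow 4 the share of all genes called in muscle rose as well, from 0.517 to 4.21% (553 genes).

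**Figure D3:**
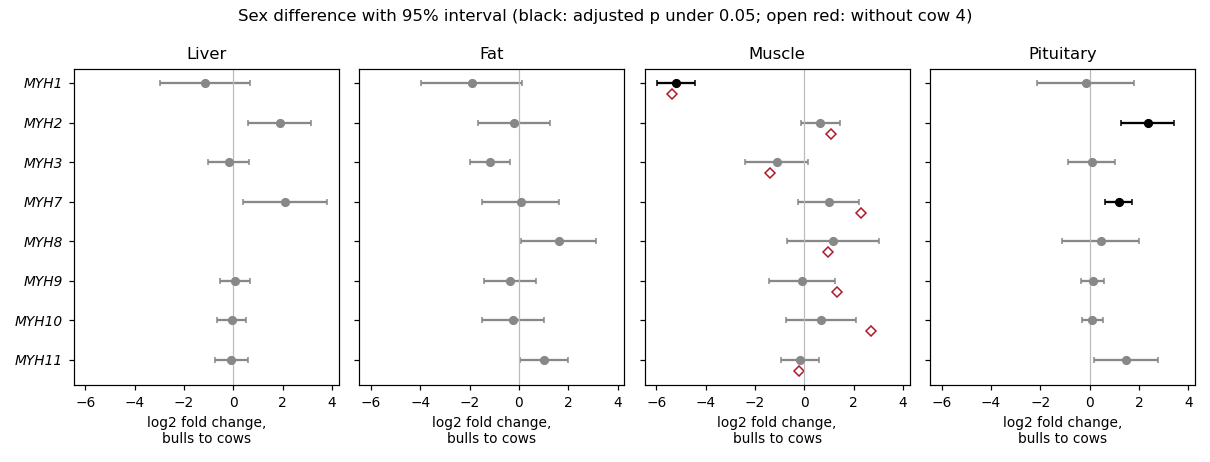
Log2 fold change of bulls to cows for each gene in the 4 tissues, with 95% intervals as bars, black where the adjusted p was under 0.05 and grey otherwise, and open red diamonds for muscle without cow 4. MYH1 in muscle (-5.20) and MYH2 (2.34) and MYH7 (1.18) in pituitary gland are black. The diamonds of MYH2, MYH7, MYH9 and MYH10 lie to the right of their points. MYH8 in liver has no standard error and is not drawn.

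As shares of the reads of the 8 genes in muscle, MYH1 held 43.7 ± 20.1% (SD, n = 5) in cows and 1.09 ± 0.742% in bulls, MYH2 held 41.3 ± 9.72% and 64.8 ± 12.6%, and MYH7 held 11.6 ± 10.5% and 30.2 ± 14.4%. The sum of MYH1, MYH2 and MYH7 was 56446 ± 20103 CPM in cows and 56978 ± 14967 CPM in bulls. The 8 genes took 4.23 ± 0.541% of all gene reads in cows and 4.16 ± 0.918% in bulls. Within the bulls, bulls 1 and 2 had 80.0 and 76.0% MYH2 and 12.8 and 17.2% MYH7, while bulls 3, 4 and 5 had 52.6, 53.8 and 61.8% MYH2 and 43.6, 43.2 and 34.0% MYH7. Cow 4 held 10.4% MYH1, 51.7% MYH2 and 29.9% MYH7, so its MYH1 share lay between those of the other cows and of the bulls.

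**Figure D4:**
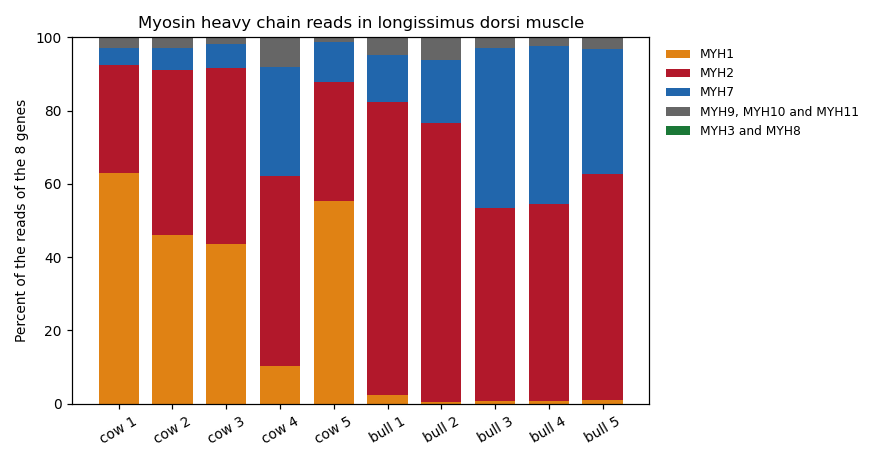
Percent of the reads of the 8 genes that fell on MYH1, MYH2, MYH7, the sum of MYH9, MYH10 and MYH11, and the sum of MYH3 and MYH8 in the longissimus dorsi muscle of each animal, as stacked bars that end at 100. The MYH1 part is 43.7 to 63.0% in cows 1, 2, 3 and 5, 10.4% in cow 4 and at most 2.40% in the bulls, and MYH3 with MYH8 is too small to see.

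The nonmuscle chains in muscle did not pass the test with all animals. MYH10 had 77.0, 89.8, 73.4 and 90.3 CPM in cows 1, 2, 3 and 5, 1386 CPM in cow 4, and 473, 903, 355, 304 and 675 CPM in the bulls. Every bull was above 4 of the cows and below cow 4, an arrangement seen in the values, for which no share of all genes was computed. The log2 fold change of MYH10 was 0.66 (SE 0.726, adjusted p = 0.805) and became 2.72 without cow 4 (adjusted p = 2.26e-11, background 4.21%). Fits without cow 4 are a description here too, since it was singled out by its values. MYH9 had 426 to 930.0 CPM in those 4 cows, 6286 CPM in cow 4 and 598 to 4165 CPM in the bulls, with a log2 fold change of -0.097 (SE 0.685, adjusted p = 1) that turned to 1.34 without cow 4 (adjusted p = 0.0811). MYH11 had 263 ± 148 CPM in cows and 239.5 ± 89.9 CPM in bulls (log2 fold change -0.16, SE 0.396, adjusted p = 0.982).

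The developmental chains in muscle overlapped between the sexes. MYH3 had 25.2 ± 26.4 CPM in cows and 11.8 ± 8.37 CPM in bulls (log2 fold change -1.12, SE 0.648, adjusted p = 0.531), with the highest value in cow 3 at 67.7 CPM. MYH8 had 14.1 ± 15.4 CPM in cows and 32.3 ± 42.3 CPM in bulls (log2 fold change 1.17, SE 0.951, adjusted p = 0.725).

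Of the 10 myosin light chain genes tested, which encode the small subunits of the motor, 1 was a DEG in muscle, MYL2, the regulatory chain of slow fibres and heart. It had 4050.2 ± 1550 CPM in cows and 14549 ± 6568 CPM in bulls (log2 fold change 1.86, SE 0.396, adjusted p = 0.00345). The fast fibre light chains MYL1 and MYLPF, chosen after their values were seen, had log2 fold changes of 0.0075 and -0.047 (adjusted p = 1 for both). The median of the light chains was 0.16 against -0.040 over all genes tested. Of the 5 thick filament partners (MYBPC1, MYBPC3, MYBPH, MYOM1 and MYOM2), 0 were DEGs by the edgeR likelihood ratio test, and so were 0 of 10 genes of myosin folding and regulation, in muscle or in any other tissue. In muscle MYBPC1 had 15275 ± 1951 CPM in cows and 20368 ± 3536 CPM in bulls (log2 fold change 0.42, SE 0.285, adjusted p = 0.622), and MYOM1, of the M-band, had 3559 ± 2049 and 3622 ± 612 CPM (0.037, SE 0.359, adjusted p = 1). TRIM54 had 1954 ± 1629 and 1667 ± 685 CPM (-0.22, SE 0.453, adjusted p = 0.956), and the chaperone gene HSP90AA1 had 1076 ± 632 and 1769 ± 583 CPM (0.73, SE 0.382, adjusted p = 0.481). The slow troponin gene TNNT1, also chosen after its values were seen, had 4251 ± 4565 CPM in cow muscle and 11218 ± 5028 CPM in bull muscle (log2 fold change 1.43, SE 0.581, adjusted p = 0.297), with the highest cow at 12286 CPM.

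In pituitary gland 2 of the 8 genes were DEGs (background 0.745% of all genes, 0.555% higher in bulls), MYH2 and MYH7, both male-biased. MYH7 had 7.51, 7.60, 5.65, 5.61 and 7.52 CPM in cow 1 to cow 5 and 9.86, 17.5, 17.03, 9.48 and 23.2 CPM in bull 1 to bull 5. On this TMM scale its sexes did not overlap, as for 1.34% of all genes in this tissue. Scaled by library size alone they overlapped, with 12.8 and 11.8 CPM in cows 1 and 2 and 12.3 and 11.2 CPM in bulls 1 and 4. The log2 fold change was 1.18 (SE 0.279, adjusted p = 0.00837), with all 10 fits without 1 animal at 0.0438 or less. The quasi-likelihood test (adjusted p = 0.146) and library sizes alone (1.07, adjusted p = 0.118) did not call it.

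MYH2 had 0.884, 1.35, 0.797, 2.50 and 4.51 CPM in the cow pituitary glands and 3.64, 18.5, 14.7, 3.53 and 10.9 CPM in those of the bulls. Cow 5 overlapped bulls 1 and 4. The log2 fold change was 2.34 (SE 0.543, adjusted p = 0.0101), the call was lost in 4 of 10 fits without 1 animal (cow 1, cow 2, cow 3 or bull 2, adjusted p up to 0.0667), and the quasi-likelihood test gave 0.204. MYH1, by contrast, had 2.05 ± 1.56 CPM in cows and 1.83 ± 3.36 CPM in bulls (log2 fold change -0.17, SE 0.995, adjusted p = 0.995).

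Other marker lists were set beside these calls in the pituitary gland. The 6 skeletal muscle markers summed to 3.98 to 25.1 CPM in cows and 12.03 to 49.6 CPM in bulls, with a median log2 fold change of 1.70 against 0 over all genes tested, and 0 of the 6 were DEGs (ACTA1 1.91, SE 0.541, adjusted p = 0.0628). The light chain MYL2 was a DEG with 0.250 ± 0.263 CPM in cows and 2.20 ± 2.11 CPM in bulls (log2 fold change 3.11, SE 0.788, adjusted p = 0.0277). Of the 5 fibroblast markers, COL1A1, a collagen gene, was a DEG with 62.9 ± 15.8 CPM in cows and 166 ± 127 CPM in bulls (log2 fold change 1.39, SE 0.366, adjusted p = 0.0345), and the list summed to 289 to 404 CPM in cows and 383 to 1020.04 CPM in bulls. Of the 8 pituitary hormone cell markers, CGA, the shared subunit of glycoprotein hormones, was a DEG with 2446 ± 668 and 8741 ± 5150 CPM (1.84, SE 0.437, adjusted p = 0.0125), and the list summed to 82844 to 265853 CPM in cows and 143868 to 286085 CPM in bulls with a median log2 fold change of 0.97. The hepatocyte markers summed to 30.5 to 44.4 CPM in cows and 31.8 to 72.8 CPM in bulls, and 0 of 5 were DEGs. The part of these cells in the result was not tested. MYH11 had 25.6 ± 16.4 CPM in cows and 71.1 ± 73.4 CPM in bulls (log2 fold change 1.47, SE 0.655, adjusted p = 0.457), and the smooth muscle markers summed to 38.4 to 242 CPM in cows and 83.8 to 569 CPM in bulls.

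In liver, 0 of the 8 genes were DEGs by the edgeR likelihood ratio test (background 0.175%) or the quasi-likelihood test, and 0 of the 7 that DESeq2 tested. The sexes overlapped in all 8 genes, which is near the background, since only 0.548% of all genes in liver did not overlap. The lowest p-values of the likelihood ratio test were those of MYH2 and MYH7. MYH2 had 4.28 ± 2.60 CPM in cows and 15.4 ± 19.1 CPM in bulls (log2 fold change 1.88, SE 0.647, adjusted p = 0.307). MYH7 had 1.07 ± 1.25 and 4.49 ± 5.82 CPM (2.08, SE 0.868, adjusted p = 0.514). The liver of bull 2 held the highest value of both, at 49.2 and 14.9 CPM, together with the highest skeletal muscle markers of any liver (145 CPM). Without bull 2 the log2 fold changes were 0.70 and 0.83. Without bull 3, whose liver went against its label, they were 2.02 and 2.25, and again neither passed the test. MYH9, MYH10 and MYH11 had log2 fold changes of 0.061, -0.078 and -0.087 with 95% intervals inside -0.75 to 0.67.

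In fat, 0 of the 8 genes were DEGs by the edgeR likelihood ratio test (background 0.114%), by the quasi-likelihood test or by DESeq2. MYH3 had 8.14, 9.94, 9.59, 18.3 and 9.37 CPM in cows and 6.33, 7.20, 4.39, 3.20 and 3.63 CPM in bulls, so the sexes did not overlap, as for 1.29% of all genes in fat. Its log2 fold change was -1.18 (SE 0.414, adjusted p = 0.435). MYH8 did not overlap either, but with 0 to 2 reads in the cow fats and 2 to 7 in the bull fats, so no fold is given (adjusted p = 0.636). MYH11 had 290.0 ± 173 CPM in cows and 585 ± 361 CPM in bulls (log2 fold change 1.013, SE 0.496, adjusted p = 0.700). The fat of bull 5 had the lowest MYH9 and MYH10 of all fat samples, at 163 and 11.2 CPM against 542 to 2169 CPM and 36.6 to 358 CPM in the other 9.

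Over the 4 tissues together, M2 made 0 of the 8 genes DEGs by the edgeR likelihood ratio test (background 1.69%), by the quasi-likelihood test 0 and by DESeq2 2. MYH1 had a log2 fold change of -1.94 (SE 0.544, adjusted p = 0.0746), MYH2 of 1.16 (SE 0.346, adjusted p = 0.0667), MYH7 of 1.06 (SE 0.371, adjusted p = 0.118) and MYH3 of -0.63 (SE 0.269, adjusted p = 0.205). DESeq2 called MYH1 (adjusted p = 0.0480) and MYH2 (0.0401), and the share of all genes that DESeq2 called is not set beside them here. Without bull 5, MYH1 was -3.85 (adjusted p = 4.74e-13, background 3.49%), and without cow 4 it was -2.33 (adjusted p = 0.0142, background 5.22%). Both animals were singled out by their values of the 8 genes, so these fits are a description. The light chains MYL2 (2.27, SE 0.453, adjusted p = 0.00226) and MYL6B (1.43, SE 0.385, adjusted p = 0.0321) were DEGs of M2.

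A sex-by-tissue interaction term tested whether the sex difference itself differed between tissues. It called 0 of the 8 genes by the edgeR likelihood ratio test (background 0.335%) and 0 by the quasi-likelihood test. The lowest values of the likelihood ratio test were those of MYH1 (adjusted p = 0.219) and MYH2 (adjusted p = 0.458). A sex difference of MYH1 confined to muscle is thus not shown by this test. MYH10 had an adjusted p of 0.996, which was 0.00455 without the muscle of cow 4 (background 1.19%). That library was singled out by its MYH10 value, so the fit without it is a description.

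The few MYH1 and MYH2 reads outside muscle were set against those of the same animal's muscle. MYH1 made 39.2 to 76.1% of the MYH1 and MYH2 reads in the liver, fat and pituitary gland of cows 1, 2, 3 and 5, whose muscles had 47.7 to 68.1%. In cow 4 it made 9.30, 10.99 and 5.88% in these tissues and 16.8% in muscle. In bulls 1 to 4 it made 0 to 16.7% in the 3 tissues and 0.726 to 2.91% in muscle.

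Bull 5 was the exception. MYH1 made 44.3% of the MYH1 and MYH2 reads in its liver (95% exact binomial interval 36.8 to 52.0%, 176 reads), 42.2% in its fat (35.4 to 49.3%, 206 reads) and 41.8% in its pituitary gland (36.0 to 47.8%, 287 reads). In its muscle the same share was 1.48% of 275653 reads. The 3 other tissues of bull 5 thus had shares above those of bulls 1 to 4, while its muscle had that of the bulls. Its fat lay among the fats of cows 1, 2, 3 and 5, which had 39.2 to 54.3%. Its liver and pituitary gland lay below those of the same cows, which had 48.8 to 65.3% and 49.2 to 76.1%, and above those of cow 4. Its MYH1 level was 7.36 CPM in liver, 6.72 CPM in fat and 7.83 CPM in pituitary gland, against at most 0.673 CPM in those tissues of the other 4 bulls. Without bull 5, the log2 fold change of MYH1 was -3.52 in liver (adjusted p = 0.0105, background 0.236%), -4.01 in fat (adjusted p = 0.0511) and -2.59 in pituitary gland (adjusted p = 0.0907), against -1.15, -1.92 and -0.17 with all bulls. Bull 5 was singled out by these same MYH1 values, so these fits are a description. The liver fit still held bull 3, whose liver went against its label and had 1 MYH1 read. The intervals cover counting error only.

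**Figure D5:**
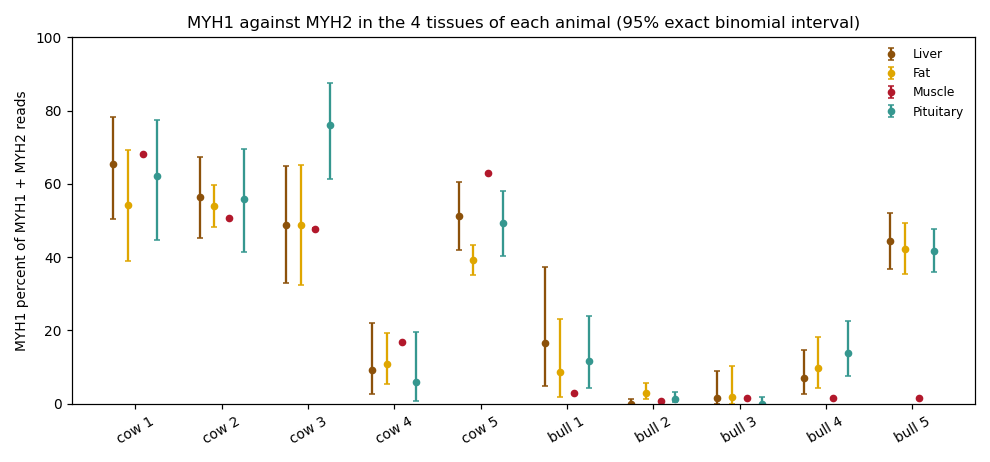
MYH1 reads as a percent of the MYH1 and MYH2 reads in each tissue of each animal, with 95% exact binomial intervals as bars and the tissues in colours. Cows 1, 2, 3 and 5 have at least 39.2 in every tissue and cow 4 and bulls 1 to 4 at most 16.8, whereas bull 5 has 41.8 to 44.3 in liver, fat and pituitary gland and 1.48 in muscle.

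The genes whose pattern was most like each chain were listed by Pearson's r of log2(CPM + 1) over the 40 libraries, as a description across 4 tissues that share animals. MYH2 was followed by ACTA1 (r = 0.997), MYBPC1 (0.996) and CKM (0.995), which encode a skeletal actin, a thick filament protein and muscle creatine kinase. MYH7 was followed by the slow fibre troponins TNNT1 (0.985) and TNNC1 (0.984) and by NRAP (0.982), and MYH1 by TRIM63 (0.957), AMPD1 (0.955) and UCP3 (0.953). MYH11 had BMP4 (0.866) and the smooth muscle genes ACTA2 (0.864) and SMTN (0.857), MYH9 had GIPC3 (0.844) and MYH10 had ZNF697 (0.803). The developmental chain MYH3 had HOXA9 (0.861), EGFLAM (0.855) and FAS (0.853), and MYH8 had DBX1 (0.890), LRRC30 (0.858) and SLC7A10 (0.856). Some of these genes had few reads, with means of 0.860 CPM for GIPC3, 0.853 for DBX1, 0.148 for LRRC30 and 1.86 for SLC7A10.

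Within the 10 muscle libraries the order changed. The nearest gene to MYH1 was XIST (r = 0.980), the X-inactivation transcript that is read in cows, and then FAM57A (0.949). MYH7 was nearest to ADCK3 (0.970), TNNT1 (0.968) and ITGB1BP2 (0.967), MYH2 to DNAJA4 (0.955), and MYH10 to FAM166B (0.984), UCK2 (0.962) and CHRNA1 (0.957), the last an acetylcholine receptor subunit of muscle. MYH9 was nearest to TRAFD1 (0.981). These values rest on 10 libraries and on the muscle of cow 4, which was the highest for MYH7, MYH9 and MYH10 in TMM-scaled CPM.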

How the data were processed

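The authors isolated RNA from 4 tissues of 5 cows and 5 bulls, prepared poly-A libraries and sequenced paired ends. They trimmed the reads with Trimmomatic, aligned them to bosTau7 with TopHat2 and Bowtie2, converted BAM to SAM files with SAMtools and counted unique reads per gene with HTSeq. The 40 tables were deposited as counts per gene by the authors, without normalization. Strand setting and overlap mode are not given in the sources used here.

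A row without a gene name (0.114 to 2.69% of reads) was left out of library sizes and tests. The 13148 genes with a read in at least 1 library were fitted with edgeR 4.0.16 in R 4.3.3 (TMM factors, negative binomial models, likelihood ratio test, prior count 0.125, Benjamini-Hochberg adjustment over all genes, threshold 0.05). M1 had sex as its term within a tissue. M2 had sex and tissue over 40 libraries, and tissue contrasts came from it. Every printed adjusted p is from edgeR unless DESeq2 (1.42.0) is named. Library totals of 5173092 to 19165864 reads limit the precision of genes with few reads, and the floor was 3 reads per library. Levels are TMM-scaled CPM. Binomial intervals are exact at 95%.

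Alternatives were the quasi-likelihood test, DESeq2, RLE factors, a stricter filter, blocks, leaving out each animal and leaving out the liver of bull 3. Library sizes alone and leaving out the muscle of cow 4 were added after seeing the data. Whether numbers pair samples was checked by correlating deviations from group means. Tissues of 1 animal share that animal by its tag in the labels (mean r = 0.169 over 60 pairs, 38 above 0.1), so the animal was a block in M2 as an alternative. The same number in cows and bulls marks no shared animal (mean r = -0.0811 over 20 pairs).

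Members and lists were chosen with earlier results of these data known. Named genes were all members found, the called genes of each list (or its 2 most abundant), and the 3 genes most like each member. The list of other myosin heavy chains had 0 of 5 genes tested. Levels per length were not computed because coding lengths were not used here. Scripts were tested on simulated data.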

Additional observations from a re-analysis of the deposited data

Results flagged for a closer look

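Of 63 groups of 5 libraries, 14 held 1 library far from the other 4 by Dixon's criterion. Its rate of about 1 group in 20 holds for independent, normally distributed values. Here it was applied to CPM without a logarithm, every marked value was a high one, and groups share libraries. The number marked can therefore not be read against that rate. No explanation of these values was tested.

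For MYH1, bull 5 had 7.36 CPM in liver against 0 to 0.572 in the other bulls, 6.72 CPM in fat against 0.0915 to 0.673, and 7.83 CPM in pituitary gland against 0 to 0.573. In muscle, bull 1 had 1216 CPM of MYH1 against 369 to 563.

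The muscle of cow 4 stood above the other cow muscles in MYH2 (51028 CPM against 13032 to 21714), MYH7 (29546 against 1964 to 6298), MYH9 (6286 against 426 to 930.0) and MYH10 (1386 against 73.4 to 90.3). Scaled by library size alone, its MYH2 stood out less, with 26434 CPM against 11889 to 19571. The fat of the same cow had 18.3 CPM of MYH3 against 8.14 to 9.94.

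The liver of bull 2 stood above the other bull livers in MYH2 (49.2 CPM against 2.86 to 9.51), MYH7 (14.9 against 1.14 to 2.58) and MYH9 (755 against 435 to 519). Its muscle had 4165 CPM of MYH9 against 598 to 1596. MYH8 in the muscle of cow 2 was 41.2 CPM against 3.69 to 10.2 in the other cows.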

How the results depend on the processing

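Over 62 single-gene results and 1073 alternative values, 998 kept their direction and side of the threshold, 33 lost the call, 22 gained it and 20 reversed. In pituitary gland the number of genes called for sex was 0 by the quasi-likelihood test and 1 with library sizes alone. Over the 4 tissues it was 2 with DESeq2, with library sizes alone and without the muscle of cow 4. Liver against pituitary gland had 3 calls with library sizes alone, and the interaction had 1 without the muscle of cow 4. Leaving out 1 animal gave 0 to 1 calls in liver, 1 to 4 in muscle, 1 to 2 in pituitary gland, 0 to 3 over the 4 tissues and 0 to 1 for the interaction.

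For sex in muscle, MYH9 was 0.051 with library sizes alone and -0.73 to 1.34 without 1 animal, and MYH11 was -0.35 to 0.27 without 1 animal. MYH10 in liver against fat was 0.098 with DESeq2, 0.098 with RLE factors, 0.051 without the liver of bull 3 and -0.19 to 0.38 without 1 animal, and in fat against pituitary gland -0.47 to 0.084 without 1 animal. MYH9 in fat against muscle was 0.36 with library sizes alone. The causes were not tested.

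With the accession number as a replicate block, MYH8 in muscle was -0.51 and MYH9 was 0.69 for sex, and with the animal as a replicate block MYH10 in liver against fat was 0.090. Among the results reported, neither block changed another direction or any call of the 8 genes.

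Counts of all genes moved more. Sex calls in liver, fat, muscle and pituitary gland were 23, 15, 68 and 98 by the likelihood ratio test, 1, 3, 7 and 12 by the quasi-likelihood test, 20, 30, 89 and 134 by DESeq2, and 13, 6, 53 and 93 with the stricter filter. Over the 4 tissues 222 became 77 by the quasi-likelihood test, 717 with library sizes alone and 342 without the muscle of cow 4. The number block gave 42, 10, 73 and 151 calls by tissue, and in muscle 40 higher and 33 lower in bulls against 18 and 50. With library sizes alone the pituitary split was 32 and 24 against 73 and 25. Leaving out 1 animal gave 10 to 187 calls in liver, 5 to 22 in fat, 25 to 553 in muscle, 54 to 231 in pituitary gland, 57 to 714 over the 4 tissues and 9 to 197 for the interaction. Both the highest liver and the highest muscle count came without cow 4. Levels per length were not run.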
